A study of Rattus norvegicus with 4 samples.

Results

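The proteasome genes of rat cartilage were described here as 45 of the 24005 genes in the deposited count table. They are the genes with a symbol of the form Psm, 1 letter from a to g and a number, and the inducible subunits Psmb8, Psmb9 and Psmb10 were set apart. RNA sequencing was done on polyA RNA from cartilage. The animals were male rats of the outbred Sprague Dawley stock, 8 to 12 weeks old. The osteoarthritis group held 2 libraries with the disease state osteoarthritis and the treatment label XGS (Xiaogu San, a herbal preparation), and the control group held 2 libraries labelled healthy and control. The series title names the disease model as monosodium iodoacetate, which blocks glycolysis and is given into the joint. Since both osteoarthritis libraries carry the treatment label, disease and preparation cannot be told apart. The design text calls the normal animals mice while every sample is labelled rat, and whether each library is its own animal is not stated, so the tests measure the spread between these libraries, which may be technical.

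The proteasome is the protease that degrades proteins tagged with ubiquitin. Its 20S core is a barrel in which rings of alpha subunits gate the entry and rings of beta subunits hold the active sites. The 19S regulatory particle docks on the core, and in it non-ATPase subunits bind and remove ubiquitin while a ring of ATPases unfolds the substrate. Dedicated chaperones assemble these parts, and separate activators or inhibitors can bind the core. When proteasome activity is limiting, the transcription factor NFE2L1 raises the transcription of proteasome genes through antioxidant response elements. In chondrocytes, as in other cells, the proteasome degrades the inhibitor that holds the inflammatory factor NF-kB in the cytoplasm.

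The libraries held 24492412 and 25994449 counts in osteoarthritis and 28156020 and 28270779 counts in control. They differed in tissue markers as well. The summed level of 8 chondrocyte markers was 3955 and 7986 CPM (counts scaled to the library total, which edgeR's TMM factors adjust) in osteoarthritis, against 19263 and 31603 CPM in control. Most of the control sum was Col2a1, the main cartilage collagen, with 3428 and 385 CPM in osteoarthritis and 13909 and 26794 CPM in control. Of these 8 markers, 4 lay below both controls, 0 above, and 4 overlapped. Among the overlapping ones, Acan, the main cartilage proteoglycan, had 70.8 and 2701 CPM in osteoarthritis and 492 and 587 CPM in control, and Sox9, the chondrocyte transcription factor, had 19.5 and 189 CPM in osteoarthritis and 28.3 and 41.2 CPM in control. Replicate 2 of osteoarthritis was above both controls for Acan and Sox9, and replicate 1 below. The summed level of 7 erythroid markers was 443 and 1125 CPM in osteoarthritis and 36831 and 31332 CPM in control, and that of 6 B cell markers was 12.3 and 24.3 CPM in osteoarthritis and 276 and 384 CPM in control. The sum of 6 osteoblast and osteocyte markers was 57.6 and 323 CPM in osteoarthritis and 1174 and 5085 CPM in control, with 5 of the 6 below both controls. All 8 cell division markers lay below both controls. Of all 15282 genes tested, by comparison, 26.5% lay below both controls and 30.0% above. Within osteoarthritis, 6 adipocyte markers summed to 5177 CPM in replicate 1 and 23.4 CPM in replicate 2, and 6 tendon and ligament markers to 352 and 7517 CPM. The controls stood apart in 6 skeletal muscle markers, which summed to 127 and 302 CPM in osteoarthritis and to 2236 and 95.6 CPM in control. The part of these tissue differences in the proteasome values was not tested. In bulk RNA, fewer cells of a type and less RNA per cell cannot be told apart.

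To show the control regions of genes with opposite values, RefSeq sequences of assembly GRCr8 are printed for 5 genes. These were chosen only among genes holding a match to the letters marked below, so every printed sequence has a match. The sequences cover the 250 bases before the gene start, 5′ to 3′ on the gene's strand. Psmb2, Psmb5 and Psmb6, subunits of the beta ring, had lower levels in osteoarthritis, while Psmd1, a scaffold of the regulatory particle, and Psme4, an activator, had higher levels. Capitals mark matches to TGACNNNGC, the core of the antioxidant response element, searched on both strands. The windows are Psmb2 at chr5:144254808-144255057 on the plus strand, Psmb5 at chr15:32047380-32047629 on the minus strand, Psmb6 at chr10:55737638-55737887 on the plus strand, Psmd1 at chr9:94157721-94157970 on the plus strand and Psme4 at chr14:108706393-108706642 on the plus strand.
Psmb2: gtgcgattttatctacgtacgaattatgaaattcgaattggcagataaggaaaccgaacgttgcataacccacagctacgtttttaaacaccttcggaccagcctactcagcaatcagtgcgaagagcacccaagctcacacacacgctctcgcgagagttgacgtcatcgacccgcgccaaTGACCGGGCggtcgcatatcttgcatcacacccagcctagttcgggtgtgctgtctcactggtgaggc
Psmb5: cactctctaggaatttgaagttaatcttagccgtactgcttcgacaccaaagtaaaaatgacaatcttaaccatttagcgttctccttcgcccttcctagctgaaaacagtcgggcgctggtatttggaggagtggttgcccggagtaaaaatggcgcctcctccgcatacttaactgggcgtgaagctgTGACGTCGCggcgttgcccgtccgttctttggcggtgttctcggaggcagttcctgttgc
Psmb6: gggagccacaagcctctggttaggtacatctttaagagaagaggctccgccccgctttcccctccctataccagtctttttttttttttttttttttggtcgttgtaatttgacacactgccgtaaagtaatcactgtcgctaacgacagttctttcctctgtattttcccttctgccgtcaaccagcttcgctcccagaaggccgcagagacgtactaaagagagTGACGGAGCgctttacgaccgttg
Psmd1: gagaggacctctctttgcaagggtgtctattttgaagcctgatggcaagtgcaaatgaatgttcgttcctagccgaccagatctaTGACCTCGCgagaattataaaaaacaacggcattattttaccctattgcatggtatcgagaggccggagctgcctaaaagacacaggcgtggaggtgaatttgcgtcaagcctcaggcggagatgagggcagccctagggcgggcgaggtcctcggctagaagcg
Psme4: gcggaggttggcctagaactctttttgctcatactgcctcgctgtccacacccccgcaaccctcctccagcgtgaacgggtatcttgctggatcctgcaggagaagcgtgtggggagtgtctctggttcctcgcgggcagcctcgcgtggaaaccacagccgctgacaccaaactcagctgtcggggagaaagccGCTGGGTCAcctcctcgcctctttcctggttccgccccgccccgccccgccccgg

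Of the 45 genes, 40 had an entry in the promoter table (all but Psma7, Psmb11, Psmd6, Psmd12 and Psmd14). A match to TGACNNNGC was found for 7 of the 40 (17.5%), against 10.1% of all 33469 promoters in the table. The 7 were Psma3, Psmb2, Psmb5, Psmb6, Psmd1, Psmd9 and Psme4. Among the beta ring genes 3 of 7 held a match, and among the ATPase genes 0 of 6. The matches stood on genes with lower levels (Psmb2, Psmb5, Psmb6, Psmd9), with higher levels (Psmd1, Psme4) and with nearly equal levels (Psma3). The letters CCAAT, the core of the NF-Y binding site, were found on either strand for 19 of 40 (47.5%), against 34% of all promoters, and they too were spread over the groups. A match is a description of letters, not a measured site.

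The comparison of osteoarthritis with control asked how the proteasome genes differed between the diseased and treated cartilage and the healthy cartilage. On TMM-scaled CPM, the medians of the beta ring, the assembly chaperones and the activators with the inhibitor were about 2-fold lower in osteoarthritis. Their median log2 fold changes were -1.06, -0.86 and -0.88. Single genes ranged from -1.31 to -0.59, from -1.34 to -0.25 and from -1.64 to 0.46. The alpha ring was less lowered, and the ATPases and non-ATPase subunits of the regulatory particle differed little. With the trend on gene length taken off, described below, the medians of the first 3 groups were -0.33, -0.59 and -0.54. Those of the alpha ring, the ATPases and the non-ATPase subunits were then -0.00, -0.03 and -0.15. With TPM scaling, described below, the median log2 fold changes of the beta ring, the chaperones and the activators with the inhibitor were nearer 0, at -0.22, -0.05 and -0.13, and those of the alpha ring, the ATPases and the non-ATPase subunits turned positive. The catalytic subunit genes Psmb5, Psmb6 and Psmb7 each had both osteoarthritis libraries below both controls. Psmd1, Psma4 and Psme4 were higher in both. No single gene passed the test over all genes. At a Benjamini-Hochberg adjusted p under 0.05, the quasi-likelihood test of edgeR called 0 of the 43 proteasome genes tested and 0 of all 15282 genes tested (0% higher and 0% lower), and limma-voom also called 0.

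Of the 45 genes, 43 passed the filter on low counts. Both osteoarthritis libraries lay below both controls for 32 of these, where the share over all genes tested was 26.5%, and above both controls for 3, where that share was 30.0%. The other 8 overlapped. These counts moved with the setting. With library totals alone or on log2 FPKM 23 lay below both controls, and with upper quartile factors 36. Without control replicate 1, 39 lay below the remaining control and 3 above. Without control replicate 2, 34 lay below the remaining control and 8 above. The shares over all genes are not given for these settings, and 26.5% and 30.0% do not apply to them. The shares of 26.5% and 30.0% over all genes are also the background of the counts per gene group below. For short genes the share below both controls was larger, 51.4% in the shortest length group described below. A negative log2 fold change, osteoarthritis over control, was found for 38 of 43, against 44.9% of all genes. At an unadjusted p under 0.05 in edgeR's quasi-likelihood test, 11 of the 43 were lower and 0 higher, against 11.2% and 12.2% of all genes. The median log2 fold change was -0.58 for the proteasome genes and 0.15 for all genes tested. DESeq2's Wald test called 4 of them lower, Psmb3, Psmb4, Psmf1 and Psmg3, where it called 8.26% of all genes lower and 7.24% higher. By edgeR's likelihood ratio test Psmf1 alone was called lower, with 6.40% of all genes called lower and 6.31% higher, and without the filter on low counts it was again the one called, with 3.72% of all genes called lower and 3.35% higher.

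**Figure D1:**
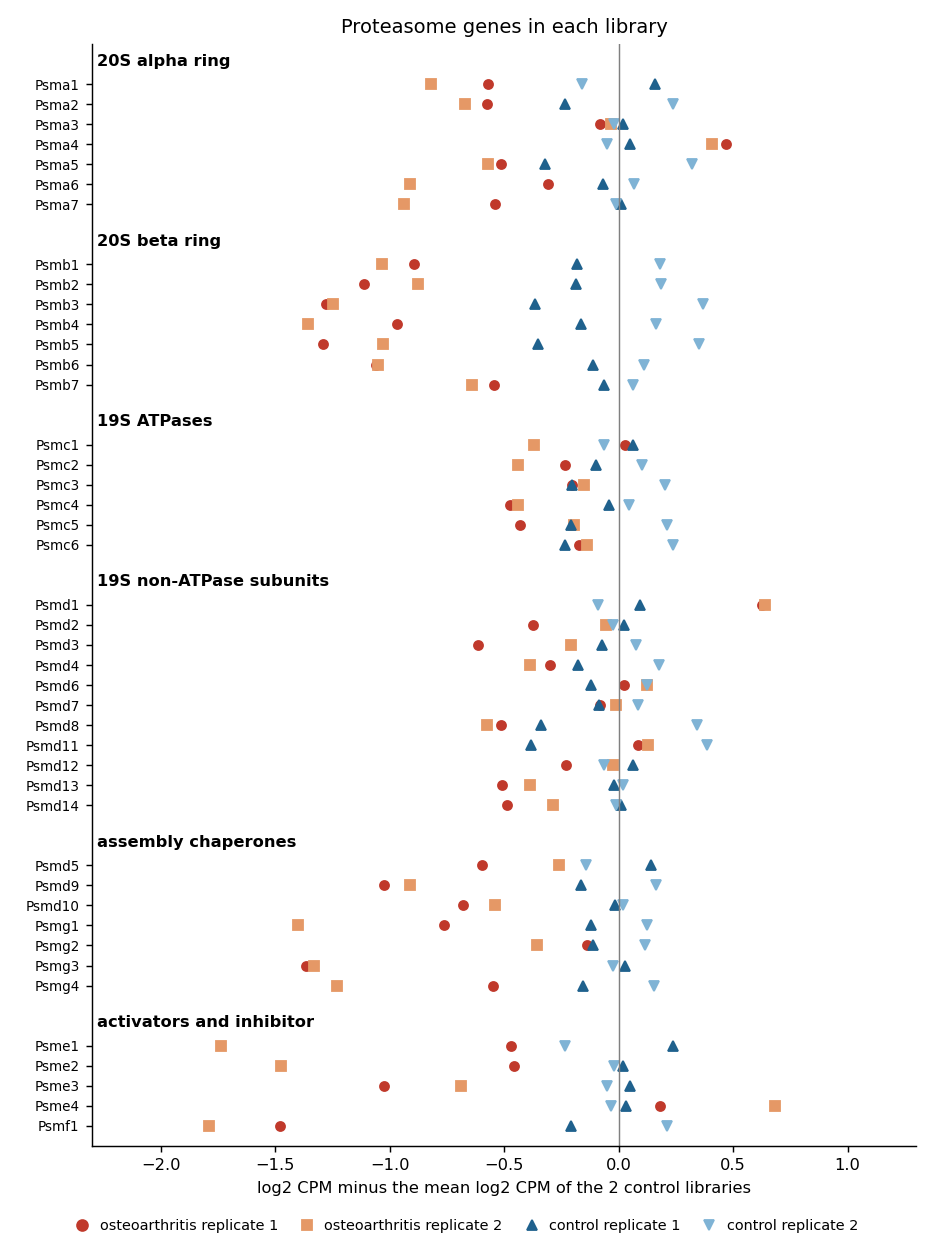
Level of the 43 tested proteasome genes in each library, as log2 CPM minus the mean log2 CPM of the 2 control libraries (horizontal axis), by role (rows); circles and squares are osteoarthritis libraries, triangles are control libraries. All 7 beta ring genes lie left of both controls, while Psmd1, Psma4 and Psme4 lie to the right.

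Gene length moved with these differences. Over all 15282 genes tested, Spearman's correlation between gene length and log2 fold change was 0.382, and over the 43 proteasome genes it was 0.662. Both are correlations across genes of the same 4 libraries. With the genes split by length into 5 equal groups, the shortest group, up to 1452 bases, had a median log2 fold change of -0.65, and the longest group, from 4408 bases, one of 0.81. In the shortest group 51.4% of genes lay below both controls. It held 26 of the 43 proteasome genes, with 23 below both controls and a median of -0.71. Also in it were all 7 beta ring genes and 3 of the 6 ATPase genes. When the trend on length over all genes was taken off, a step chosen after seeing the data, the median of the 43 was -0.22, that of the beta ring -0.33, of the assembly chaperones -0.59, of the ATPases -0.03 and of the alpha ring -0.00. The part of gene length in the values below was not tested.

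**Figure D2:**
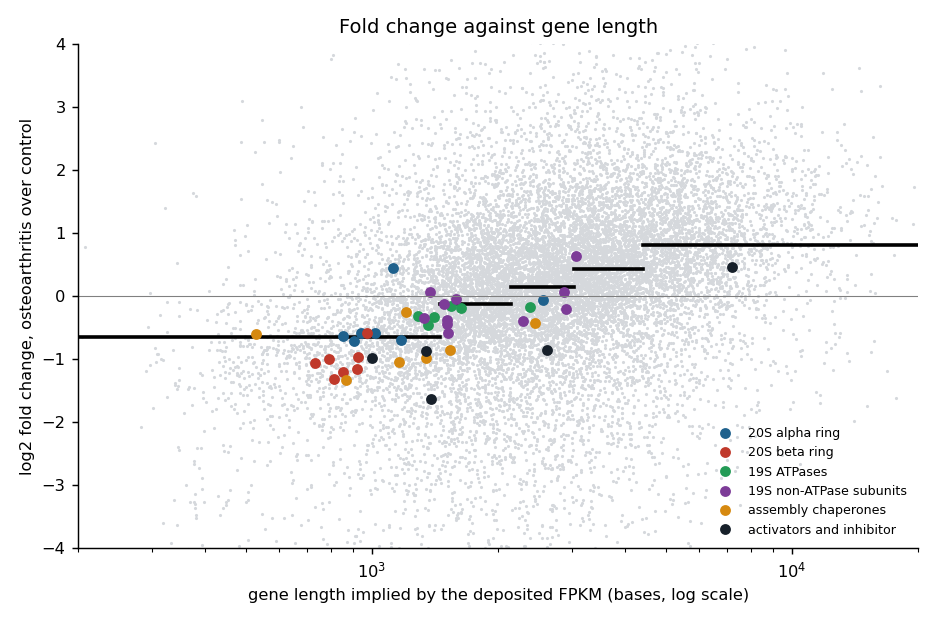
Log2 fold change of osteoarthritis over control (vertical axis) against gene length in bases (horizontal log axis); grey points are all tested genes within the plotted range, coloured points the proteasome genes by role, and black bars the median of each of the 5 length groups. The bars climb from -0.65 to 0.81, and the beta ring genes lie at the short end, 6 of 7 of them under the bar.

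The scale of the values matters for the sign. The deposited FPKM values (counts scaled to gene length and library total) summed to 547212 and 434344 in osteoarthritis and to 799633 and 825736 in control. When they were rescaled to the same sum in each library (TPM), the median log2 fold change of all genes was 0.88 and that of the proteasome genes 0.29. On this scale the ATPases, the non-ATPase subunits and the alpha ring had medians of 0.59, 0.63 and 0.22. Relative to the median of all genes, the proteasome genes stood at -0.73 with TMM scaling and at -0.58 with TPM, the beta ring at -1.21 and -1.09, and the ATPases at -0.41 and -0.29. All these values are differences on the log2 scale.

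Ratios between subunit groups within a library do not depend on that scale. The median FPKM of the beta ring over the median FPKM of the ATPases was 1.13 and 1.34 in the osteoarthritis libraries, against 1.78 and 2.63 in the controls. Both osteoarthritis ratios were below both control ratios. The beta ring genes are 730 to 972 bases long and the ATPase genes 1288 to 2381, and the part of gene length in these ratios was not tested. The summed FPKM of the core genes over that of the regulatory particle genes was 1.32 and 1.17 in osteoarthritis and 1.78 and 1.91 in control. The alpha ring over the ATPases gave 1.16 and 1.15 in osteoarthritis and 1.20 and 0.950 in control, so here the groups overlapped. With 2 libraries against 2 an exact permutation test cannot go below p = 0.333, and none is given.

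The catalytic subunits of the beta ring cut the substrate, Psmb5 after hydrophobic, Psmb6 after acidic and Psmb7 after basic residues. Psmb5 had 48.0 and 57.6 CPM in osteoarthritis, against 92.2 and 150 CPM in control. Its log2 fold change was -1.20 ± 0.38 (SE, n = 2 each, adjusted p = 0.159 by edgeR). Both osteoarthritis libraries lay under the lower control, and the controls differed more from each other than the osteoarthritis libraries did. In the promoters printed above, the match starts 60 bases before the gene start in Psmb5, 24 in Psmb6 and 68 in Psmb2. Psmb6 had 30.4 and 30.6 CPM in osteoarthritis and 58.7 and 68.5 CPM in control, a log2 fold change of -1.06 ± 0.30 (adjusted p = 0.143 by edgeR). Psmb7 was the beta subunit with the smallest difference, 44.8 and 41.9 CPM in osteoarthritis against 62.5 and 68.2 CPM in control. Its log2 fold change was -0.59 ± 0.29 (adjusted p = 0.295 by edgeR).

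The other beta subunits have no active site and shape the ring. Psmb3 had 50.2 and 51.2 CPM in osteoarthritis and 94.3 and 157 CPM in control, with a log2 fold change of -1.31 ± 0.38 (adjusted p = 0.145 by edgeR). RefSeq lists 10 related copies of Psmb3, more than of any other proteasome gene, so its count is uncertain. Psmb4 had 87.6 and 66.8 CPM in osteoarthritis and 153 and 192 CPM in control (-1.16 ± 0.35). Psmb1 was at -0.97 ± 0.33, and Psmb2 had 39.2 and 46.2 CPM in osteoarthritis against 74.5 and 96.5 CPM in control, with an adjusted p = 0.162 by edgeR. All 7 tested beta genes lay below both controls, against 51.4% of genes in the shortest length group, which holds all 7. Of the 7, 6 had an unadjusted p under 0.05, with Psmb7 the exception, against 11.2% of all genes lower at that threshold.

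The alpha ring forms the outer gate of the core. Of its 7 tested genes, 6 lay below both controls and 1 above, with a median log2 fold change of -0.58, which was -0.37 without control replicate 2. Psma7 had the most counts per length of the ring, 135 and 75.2 FPKM in osteoarthritis and 164 and 148 FPKM in control, and a log2 fold change of -0.72. Psma4 went the other way, with 90.0 and 86.4 CPM in osteoarthritis against 67.4 and 62.9 CPM in control (0.44 ± 0.29, adjusted p = 0.423 by edgeR). At 1121 bases it is close to the ring's median length of 1017 bases. Psma3 was nearly equal, with 83.1 and 86.0 CPM in osteoarthritis and 89.2 and 86.9 CPM in control (-0.06 ± 0.29).

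Psma8 and Psmb11 did not pass the filter. In mice, Psma8 replaces an alpha subunit in the testis and Psmb11 a beta subunit in the thymus. Psma8 had 4 and 4 counts in osteoarthritis and 0 and 0 in control, and Psmb11 had 15 and 5 counts in osteoarthritis and 0 and 0 in control. A total of 1585 genes had counts in both osteoarthritis libraries and 0 in both controls, whereas 41 genes had the reverse.

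The ATPases Psmc1 to Psmc6 unfold the substrate and open the gate. All 6 had negative log2 fold changes, from -0.46 for Psmc4 to -0.16 for Psmc1, with a median of -0.26, which was -0.47 without control replicate 1 and -0.15 without control replicate 2. Only Psmc2 and Psmc4 lay below both controls, and the other 4 overlapped. Psmc4 had 65.1 and 66.7 CPM in osteoarthritis and 87.7 and 93.1 CPM in control. None reached an unadjusted p under 0.05, and the smallest adjusted p of the group was 0.404 by edgeR.

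The 11 non-ATPase subunits form the base and lid of the regulatory particle. Their median log2 fold change was -0.20, with 6 below both controls, 1 above and 4 overlapping. The median was -0.33 without control replicate 1 and -0.08 without osteoarthritis replicate 1. Psmd1, a base scaffold, was the one above, with 128 and 129 CPM in osteoarthritis against 88.3 and 77.7 CPM in control. Its log2 fold change was 0.63 ± 0.31 (adjusted p = 0.291 by edgeR), and at 3068 bases it was the longest of the group. Psmd2, the other large scaffold, had 116 and 145 CPM in osteoarthritis and 153 and 148 CPM in control (-0.20 ± 0.33).

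Among the other subunits, mostly of the lid, the log2 fold change was -0.59 for Psmd8, -0.45 for Psmd13, -0.40 for Psmd3 and -0.13 for Psmd12, and 3 were nearest to no change. Psmd7, the partner of the deubiquitinase, had 83.1 and 87.2 CPM in osteoarthritis and 82.9 and 93.2 CPM in control (-0.05 ± 0.30). Psmd6 had 39.6 and 42.4 CPM in osteoarthritis and 35.8 and 42.4 CPM in control (0.07 ± 0.30). Psmd11 had 80.1 and 82.5 CPM in osteoarthritis, and the controls at 57.9 and 98.6 CPM lay on either side of them (0.06 ± 0.37). Its controls differed 1.70-fold, the widest gap between controls among the 43 genes. Psmd14, the deubiquitinase that removes ubiquitin chains, was at 22.0 and 25.3 CPM in osteoarthritis and 31.1 and 30.6 CPM in control (-0.38 ± 0.32), and Psmd4, a ubiquitin receptor, had a log2 fold change of -0.35. The signs of Psmd6, Psmd7, Psmd11 and Psma3 changed with the scaling.

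The assembly chaperones help to build the rings and do not stay in the finished particle. All 7 lay below both controls, where the share over all genes tested was 26.5%. In the shortest length group, which holds Psmg1, Psmg2, Psmg3, Psmd9 and Psmd10, that share was 51.4%. Psmg2 lay below by little, with 11.5 and 9.89 CPM in osteoarthritis and 11.7 and 13.7 CPM in control. Their median log2 fold change was -0.86. Psmg3, which acts with Psmg4 on the alpha ring, had 9.96 and 10.2 CPM in osteoarthritis, against 26.1 and 25.2 CPM in control. Its log2 fold change was -1.34 ± 0.37 (adjusted p = 0.139 by edgeR). Psmg1, which pairs with Psmg2, was at -1.05 ± 0.36, and Psmg2 at -0.25 ± 0.45. Among the chaperones of the ATPase ring, Psmd9 was at -0.98 ± 0.34, Psmd10 at -0.60 and Psmd5 at -0.43. Psmd10 had the lowest counts of the chaperones, 67 and 58 in osteoarthritis and 102 and 96 in control.

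Psmf1, which can bind and inhibit the core, had the smallest p of all the proteasome genes. It had 36.3 and 29.3 CPM in osteoarthritis, against 87.5 and 117 CPM in control. Its log2 fold change was -1.64 ± 0.34, or 3.11-fold lower, with an adjusted p = 0.0982 by edgeR. This was the lowest log2 fold change of the 43, in a gene of 1385 bases, within the shortest of the 5 length groups. Without osteoarthritis replicate 1 edgeR called it together with Psme1, Psme2 and Psmg1, where 6.95% of all genes were called lower and 8.16% higher, and without osteoarthritis replicate 2 it called Psmf1 alone, where 5.73% were called lower and 4.88% higher. These fits take the spread of the single remaining osteoarthritis library from that of the controls.

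Among the activators, Psme1, Psme2 and Psme3 had lower levels in osteoarthritis and Psme4 higher. Psme1 and Psme2 form the activator that interferon induces and that serves antigen processing. Psme1 had 112 and 46.6 CPM in osteoarthritis against 183 and 132 CPM in control (-0.99 ± 0.51, adjusted p = 0.314 by edgeR), and its osteoarthritis libraries differed 2.41-fold, the widest gap within osteoarthritis among the 43 genes. Psme2 had 52.6 and 26.0 CPM in osteoarthritis and 73.2 and 71.3 CPM in control (-0.88 ± 0.43). For both the replicate 2 library of osteoarthritis was the lower one. Psme3, an activator of the nucleus, had 49.4 and 62.3 CPM in osteoarthritis and 104 and 97.0 CPM in control (-0.85 ± 0.31). Psme4, a large nuclear activator, had 123 and 174 CPM in osteoarthritis and 111 and 106 CPM in control (0.46 ± 0.34, adjusted p = 0.479 by edgeR). The median of the activators and the inhibitor was -0.88, and it was -1.51 without osteoarthritis replicate 1 and -0.48 without osteoarthritis replicate 2. At 7213 bases Psme4 is the longest of the proteasome genes, within the length group whose median log2 fold change was 0.81.

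The inducible subunits Psmb8, Psmb9 and Psmb10 replace Psmb5, Psmb6 and Psmb7 in immune cells and after interferon. Psmb8 had 38.5 and 10.2 CPM in osteoarthritis and 69.0 and 67.1 CPM in control (-1.48 ± 0.65, adjusted p = 0.248 by edgeR). Psmb9 had 31.5 and 9.59 CPM in osteoarthritis and 72.6 and 74.7 CPM in control (-1.84 ± 0.60), and Psmb10 had 32.1 and 12.7 CPM in osteoarthritis and 65.8 and 76.3 CPM in control (-1.67 ± 0.51). All 3 lay below both controls, and in each the replicate 2 library of osteoarthritis was the lower one, as for Psme1 and Psme2.

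On the scale per length, Psmb8 over Psmb5 was 0.629 and 0.139 in osteoarthritis and 0.588 and 0.352 in control, so the groups overlapped. Psmb9 over Psmb6 was 0.827 and 0.250 in osteoarthritis, against 0.988 and 0.872 in control, and Psmb10 over Psmb7 was 0.697 and 0.295 in osteoarthritis, against 1.02 and 1.09 in control. For the Psmb9 and Psmb10 ratios both osteoarthritis libraries were below both controls. The summed B cell and neutrophil markers, cells that carry inducible subunits, were also lower in osteoarthritis, but between its libraries they ran the other way. The 7 tested neutrophil markers and 1 untested summed to 118 CPM in osteoarthritis replicate 1 and 575 CPM in replicate 2. In control the same markers summed to 7121 and 11105 CPM. The part of the B cell and neutrophil markers in the ratios was not tested.

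**Figure D3:**
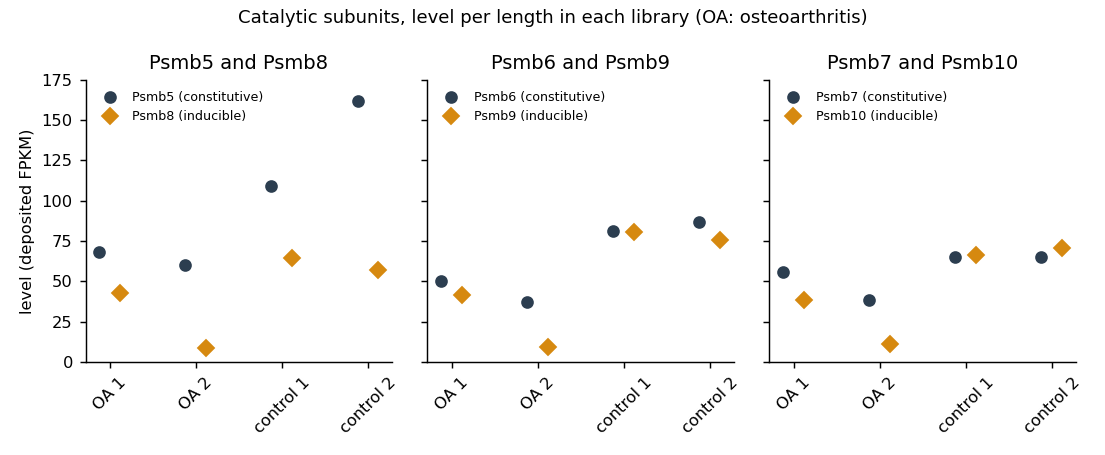
Deposited FPKM (vertical axis) of each constitutive catalytic subunit (circles) and its inducible counterpart (diamonds) in the 4 libraries (horizontal axis, OA for osteoarthritis). In osteoarthritis replicate 2 each inducible subunit lies far below its constitutive partner, at 8.40, 9.35 and 11.3 FPKM.

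Genes around the proteasome did not share one direction. Nfe2l1, the factor that raises proteasome gene transcription, had 301 and 316 CPM in osteoarthritis, against 146 and 91.4 CPM in control. Its log2 fold change was 1.38 ± 0.40 (adjusted p = 0.147 by edgeR). Ddi2, the protease that cleaves the NFE2L1 protein, had 71.8 and 113 CPM in osteoarthritis and 61.6 and 43.3 CPM in control (0.82 ± 0.39). Ngly1, the glycanase that acts on it, had 34.0 and 37.3 CPM in osteoarthritis and 24.3 and 19.7 CPM in control (0.69 ± 0.33). The related factor Nfe2l2 was at 0.68. All 4 lay above both controls. Of the 10 genes in this list, which also holds the small MAF and NF-Y factors, 6 lay above both controls and 2 below, and the median was 0.41. These genes are long, with a median of 2876 bases, and after removal of the trend on length the median was -0.08.

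Among ubiquitin genes, Rps27a, which encodes ubiquitin fused to a ribosomal protein, had 220 and 212 CPM in osteoarthritis against 480 and 336 CPM in control. Ubb, a polyubiquitin gene, had 494 and 659 CPM in osteoarthritis against 1112 and 1283 CPM in control (-1.05 ± 0.45, adjusted p = 0.237 by edgeR). Both genes lay below both controls. Rad23b, a shuttle that brings ubiquitinated proteins to the proteasome, had 102 and 199 CPM in osteoarthritis and 99.4 and 117 CPM in control (0.47 ± 0.43), and its groups overlapped.

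**Figure D4:**
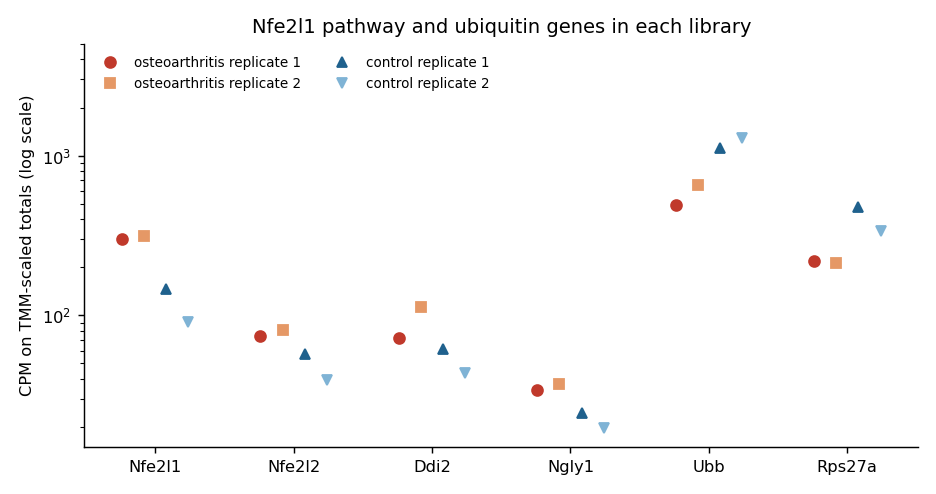
CPM on a log axis (vertical) of Nfe2l1 pathway and ubiquitin genes (horizontal) in the 4 libraries; circles and squares are osteoarthritis, triangles are control. Nfe2l1, Nfe2l2, Ddi2 and Ngly1 lie above both controls, and Ubb and Rps27a below both.

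Of other factors that bind or build the proteasome, 7 of 10 listed genes were analysed (Sem1, Paaf1 and Ecpas were not analysed here). Their median log2 fold change was -0.24, with 3 below both controls and 1 above. Adrm1, a ubiquitin receptor of the regulatory particle, had 69.4 and 60.5 CPM in osteoarthritis and 107 and 100 CPM in control (-0.67 ± 0.30). Usp14, a deubiquitinase on the particle, was the one above, with 37.5 and 45.7 CPM in osteoarthritis and 36.1 and 24.0 CPM in control (0.47 ± 0.36). Pomp, the chaperone that matures the core, was near the limit of detection in this table, with 11 and 1 counts in osteoarthritis and 60 and 6 counts in control.

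Set beside other housekeeping genes, the 79 tested cytosolic ribosomal protein genes had a median log2 fold change of -1.15, with 74 below both controls and 0 above. Their median length was 564 bases, and after removal of the trend on length the median was -0.12. For the 43 proteasome genes the corresponding values were -0.58, with a median length of 1344 bases, and -0.22. The 8 cell division markers had a median of -2.47, and it was -2.72 with the trend removed. These medians are descriptions, and their differences were not tested.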

How the data were processed

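PolyA RNA of 4 cartilage samples was sequenced by the authors. Trimming with fastp and spliced alignment with TopHat are named in the submitters' processing notes, with no versions, beside the human build hg38, although the symbols are rat symbols. For the counting tool, annotation and strandedness, the sources used here say nothing. The authors deposited raw read counts per gene and FPKM values that equal those counts over a gene length and the column total. Gene length here is the length those values imply.

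The main test was edgeR's (version 4.0.16, R 4.3.3) quasi-likelihood F test on these counts, two-sided, osteoarthritis over control, after filterByExpr had kept 15282 of 24005 genes and TMM had scaled the totals. P-values were adjusted by Benjamini-Hochberg over all genes tested, with a threshold of 0.05. The standard error is the log2 fold change over the root of the F statistic. Alternatives were DESeq2 1.42.0, limma 3.58.1 (voom, and its trend method on FPKM values, log2 after adding 1 or 0.1), the likelihood ratio test, other scalings and filters, and each library left out. The trend on length was a lowess fit with a span of 0.3 (statsmodels). Scripts were tested on simulated data. Gene lists, roles and members were chosen with earlier results of these data known. Values in all libraries are given for the catalytic subunits, up to 6 proteasome genes per direction by smallest unadjusted p, the 3 nearest to no change, those with the widest gap within a group, and up to 3 genes of each other list. Further genes were named after their values were seen. RefSeq lists 52 related copies (pseudogenes or genes named as like them) for 19 of the 45 genes, and reads shared with them cannot be told apart. Some genes of the ubiquitin list, and that list's summary, are not reported here.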

Additional observations from a re-analysis of the deposited data

How the results depend on the processing

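Tested proteasome genes had 58 to 5208 counts per library, and 2 libraries a group limit what can be called. The count of genes called, 0 by edgeR's quasi-likelihood test, was 1428 without the filter on low counts, 2369 with DESeq2's Wald test and 1943 with the likelihood ratio test, and of the proteasome genes 1, 4 and 1 were called. Leaving out 1 library gave 0 to 2402 genes called, of which 0 to 4 were proteasome genes. The median log2 fold change of the proteasome genes, -0.58, was -0.42 with library totals alone, -0.67 with upper quartile factors, -0.43 and -0.44 on log2 FPKM with pseudocounts of 1 and 0.1, -0.22 less the trend on length, 0.29 with TPM and -0.13 with TPM without globin genes, and -0.59 to -0.40 with 1 library left out. TPM also turned the medians of the alpha ring (0.22), the ATPases (0.59) and the non-ATPase subunits (0.63), and TPM without globin genes those of the ATPases (0.17) and non-ATPase subunits (0.21). With 1 library left out, the median ranged from -1.23 to -0.79 for the beta ring, -1.06 to -0.67 for the assembly chaperones, -1.51 to -0.48 for the activators and inhibitor, -0.73 to -0.37 for the alpha ring, -0.47 to -0.15 for the ATPases and -0.33 to -0.08 for the non-ATPase subunits. Summed FPKM of the core gave a log2 ratio of -0.67, which was 0.04 with TPM, -0.38 with TPM without globin genes and -0.99 to -0.41 with 1 library left out. That of the regulatory particle was -0.11, which was 0.62 with TPM, 0.19 with TPM without globin genes and -0.32 to 0.08 with 1 library left out. Globin genes took 0.217% and 0.552% of osteoarthritis counts and 12.0% and 12.4% of control counts, and the part they have in the turn was not tested beyond leaving them out. Genes near 0 changed sign: with library totals alone Psmd7 was at 0.07 and Psma3 at 0.05, on log2 FPKM at 0.06 and 0.04, with upper quartile factors Psmd6 was at -0.04 and Psmd11 at -0.05. With 1 library left out Psmd6 ranged from -0.11 to 0.21, Psmd11 from -0.33 to 0.50 and Psmd7 from -0.19 to 0.05. The medians with TPM and with TPM without globin genes, the length trend and the sums with 1 library left out were chosen after seeing the data. No paired analysis was possible because the labels give no replicate numbers that the groups share.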
